A study of Mus musculus with 24 samples.

Results

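Interferon-stimulated genes are the genes that cells switch on after interferon binds its receptor, and 49 of them, named by symbol, were followed here among 55416 gene IDs in mouse kidney. All 49 were found, and all passed the filter on low values, a normalized count of 10 or more in 6 libraries or more, which kept 17430 genes. By role they comprised 4 IFIT RNA-binding proteins, 3 signalling factors, 4 genes of the ISG15 protein-tag system, 6 oligoadenylate synthetase (OAS) genes, 2 RNA sensing and editing enzymes and 11 other antiviral effectors. The remaining members were 3 genes of the PARP9 group, 3 of the IFI27 group, 8 interferon-inducible GTPases, 3 genes of peptide processing and transport, and 2 of the galectin group.

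Type I and type III interferons signal through receptor-bound JAK kinases to a complex that includes STAT2 and IRF9 and binds the interferon-stimulated response element (ISRE) in promoters. Interferon gamma signals to the gamma-activated sequence (GAS), and the target genes of both routes overlap. In the kidney the response can be raised by tubular, endothelial and immune cells, and nucleic acid that leaves a nucleus or mitochondrion for the cytosol is among its known triggers.

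RNA came from kidney, with 6 libraries in each of 4 groups: Sham Polg+/+, Sham PolgD257A, B-IRI Polg+/+ and B-IRI PolgD257A. B-IRI is the labels' name for the ischemia reperfusion injury surgery, and Sham for the control surgery. PolgD257A animals carry a proofreading-deficient mitochondrial DNA polymerase gamma, so their mitochondrial DNA gathers mutations, and the Polg+/+ animals were littermates. Whether 1 or both copies carried D257A is not given in the sources used here, nor are strain, sex, age or the time from surgery to collection. In all 24 libraries the Y-linked gene Ddx3y stood at 1104 to 1631 normalized counts and Xist, which female cells express, at 0 to 7.42. The labels call the replicates biological. In bulk tissue, fewer cells of a type and less RNA per cell cannot be told apart.

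Libraries held 16689284 to 26341004 reads assigned to genes. The Sham Polg+/+ libraries (16689284 to 19737994) were shallower than every Sham PolgD257A library (20843184 to 25858504). An exact permutation test gave a two-sided p = 0.00216, the smallest possible here (adjusted p = 0.00866). The adjustment was over 4 tests, of depth and of the share of reads from mitochondrial genes. Differences are given as log2 of (normalized count + 1) with the standard error (SE) of limma's moderated test, whose variance is pooled per gene over all 24 libraries. Adjusted p-values are from limma with Benjamini-Hochberg adjustment over 17430 genes, and a gene is said to have risen or fallen, or to be called, where that value is under 0.05. The injury marker Havcr1 stood at 112 to 198 normalized counts in the sham groups, at 5441 to 24888 in B-IRI Polg+/+ and at 25923 to 36062 in B-IRI PolgD257A. Polg itself stood at 997 to 1232 normalized counts over all libraries and was not called between genotypes, and since D257A is a point mutation its level does not check the genotype. The 5 comparisons below share groups of libraries with each other.

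Promoter letters were looked at first, because the ISRE is what many genes of this response are known to share. RefSeq promoters (GRCm38.p6, 250 bases before to 50 bases after the gene start) were listed for 39 of the 49 members, not for Usp18, Oas2, Mx1, Mx2, Rtp4, Parp9, Parp14, Ifi27, Ifi27l2a and Iigp1. The ISRE core was searched as GAAANNGAAA and the GAS as TTCNNNGAA, on both strands, with overlapping matches counted. An ISRE core was found in 19 of 39 members (48.7%), against 1079 of 27025 genes with a listed promoter (3.99%). A GAS was found in 10 of 39 members (25.6%), against 9.55% of genes. The 5 members shown have a match and recur below; they are written 5′ to 3′ on the gene's own strand, from base 150 to base 21 before the start, with ISRE core matches in capitals.
Isg15, chr4:156200839-156200968, minus strand: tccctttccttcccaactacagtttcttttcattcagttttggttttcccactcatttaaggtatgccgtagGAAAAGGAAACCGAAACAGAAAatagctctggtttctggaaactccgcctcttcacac
Ifit1, chr19:34640739-34640868, plus strand: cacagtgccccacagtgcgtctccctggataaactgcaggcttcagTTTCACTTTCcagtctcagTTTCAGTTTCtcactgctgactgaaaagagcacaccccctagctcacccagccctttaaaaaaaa
Bst2, chr8:71537493-71537622, minus strand: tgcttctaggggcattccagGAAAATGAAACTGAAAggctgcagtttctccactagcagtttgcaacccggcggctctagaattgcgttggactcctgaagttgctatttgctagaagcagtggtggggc
Lgals9, chr11:78984945-78985074, minus strand: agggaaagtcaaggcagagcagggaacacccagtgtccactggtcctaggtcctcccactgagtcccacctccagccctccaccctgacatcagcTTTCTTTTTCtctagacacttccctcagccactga
Gbp7, chr3:142530186-142530315, plus strand: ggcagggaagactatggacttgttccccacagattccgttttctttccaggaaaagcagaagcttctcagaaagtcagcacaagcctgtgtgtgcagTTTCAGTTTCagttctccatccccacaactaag
Isg15 held 3 overlapping matches on the gene strand, Bst2 held 2, and the matches of Ifit1, Lgals9 and Gbp7 lay on the other strand and so read as runs of T and C. Irf7 and Lgals3bp, both prominent below, held no match in their windows. A match is a description of letters, not a site shown to be bound.

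**Figure D1:**
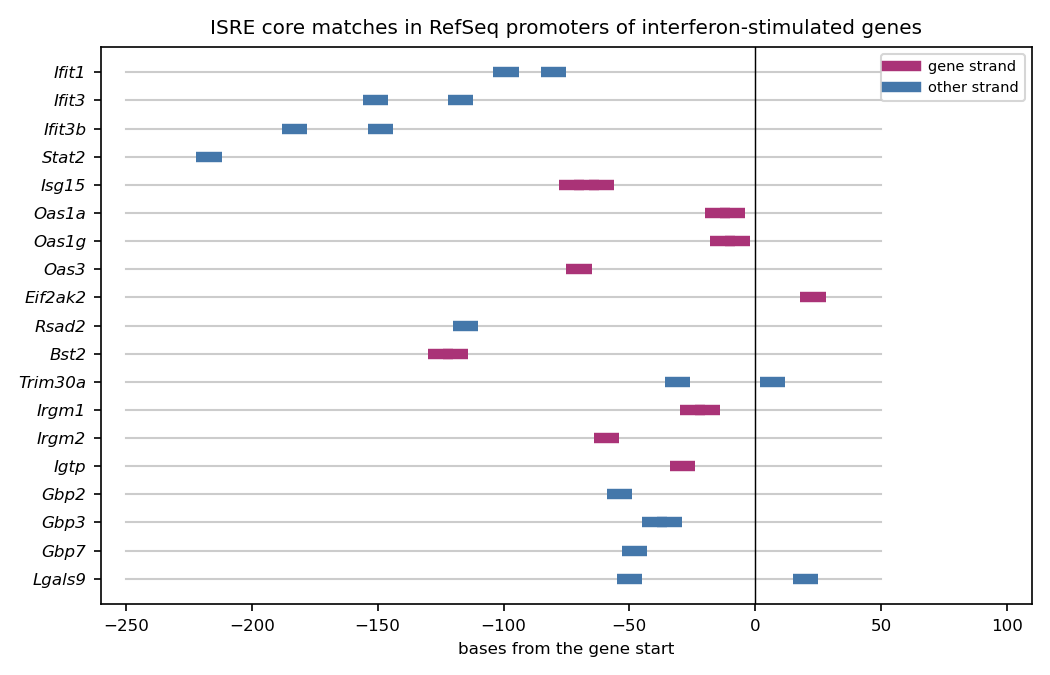
Positions of ISRE core matches, in bases from the RefSeq gene start, in the 19 members that hold one, with colour giving the strand. Grey lines mark the window from 250 bases before to 50 bases after the start. Matches of Isg15, Oas1a and Irgm1 overlap each other on the gene strand, and those of the IFIT genes lie on the other strand.

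Without injury, values in PolgD257A kidneys lay slightly above those in Polg+/+ kidneys for nearly the whole set, and 2 members passed the test. Lgals3bp, which encodes a secreted galectin-binding glycoprotein, and Ifi27, a small interferon-induced membrane protein, rose, and no member fell. That is 2 of 49 members (4.08%), where 0.126% of all genes were called, 0.0861% higher and 0.0402% lower. Differences were above 0 for 48 of 49 members, the exception being Tap1 (-0.04), and the median was 0.23, beside a median of 0.007 and 52.8% above 0 over all genes. At an unadjusted p under 0.05, 25 members were higher and 0 lower, with 7.34% of all genes under that limit in either direction. edgeR and DESeq2 on the recovered reads called 2 and 4 members higher, with 0 lower. Over all genes they called 15 of 17430 and 45 of 13037 higher.

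Lgals3bp (ENSMUSG00000033880.12, chr11:118392751-118402092, GENCODE M21 on GRCm38) had a lowest, median and highest normalized count of 852, 916 and 1016 in Sham Polg+/+ and of 1372, 1474 and 1948 in Sham PolgD257A. Every PolgD257A library was above every Polg+/+ library, a difference of 1.70-fold (log2 0.76 ± 0.09, adjusted p = 1.01e-05, limma). Ifi27 (ENSMUSG00000064215.14, chr12:103434211-103440239) stood at 824, 923 and 1019 in Sham Polg+/+ and 1153, 1429 and 1711 in Sham PolgD257A. Its groups did not overlap either, and the difference was 1.53-fold (log2 0.62 ± 0.09, adjusted p = 0.00044, limma). Both calls held under each of the 39 other settings tried, left-out libraries included.

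Among the signalling factors, Irf7, the interferon-induced factor that amplifies the type I response, came closest to the threshold. Irf7 (ENSMUSG00000025498.16, chr7:141262706-141266481) had a lowest, median and highest count of 199.9, 266 and 312 in Sham Polg+/+ and 358, 416 and 519 in Sham PolgD257A. The groups did not overlap, but the difference did not pass (log2 0.72 ± 0.16, adjusted p = 0.065, limma), and it did pass in 9 of the 39 other settings, whose adjusted p ranged over all 39 from 0.0026 to 0.16. Stat2 and Irf9, which encode parts of the ISRE-binding complex, differed by 0.20 and 0.14 without passing.

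Effector families followed the same sign at different sizes, none of their members passing in sham unless named above. The synthetases of the OAS family make the messenger that activates RNase L. Its 6 genes here, OAS-like ones included, had a median difference of 0.56 (0.09 to 0.83). That was the largest of the role groups with more than 2 genes. In the IFIT family, which binds foreign RNA ends, the median was 0.38, and Ifit1 stood at 72.1, 88.2 and 174 in Sham Polg+/+ and 121, 159.97 and 236 in Sham PolgD257A. Its groups overlapped (log2 0.66 ± 0.22, adjusted p = 0.38, limma), with Sham Polg+/+ replicate 1 the highest control. Isg15, the ubiquitin-like protein tag itself, stood at 45.6, 73.4 and 81.1 and 97.0, 104 and 129 without overlap but also without passing (log2 0.64 ± 0.24, adjusted p = 0.47, limma).

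Groups did not overlap for 7 members, all higher in PolgD257A: Lgals3bp, Ifi27, Irf7, Isg15, Ifit3, Bst2 and Rtp4, where 0.379% of all genes showed groups that do not overlap in that direction. No member was lower without overlap, where 0.252% of all genes were. Bst2 encodes tetherin, which holds budding virus at the cell surface, and its counts were 233 to 381 in Sham Polg+/+ and 387 to 486 in Sham PolgD257A. The 8 interferon-inducible GTPases, many of them known as targets of interferon gamma, had a median of 0.15, and the immunoproteasome subunits Psmb8 and Psmb9 differed by 0.18 and 0.21. Eif2ak2, the RNA-sensing kinase PKR, and Adar, the RNA-editing deaminase, differed by 0.02 and 0.06. Members with and without an ISRE core had similar medians, 0.24 over 19 and 0.22 over 20 genes.

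The depth of the sham libraries moved with genotype, as did their share of reads from mitochondrial genes (10.02% ± 0.406 in Polg+/+ and 10.6% ± 0.308 in PolgD257A, SD, n = 6; exact two-sided permutation p = 0.026, adjusted p = 0.0491). With the recovered reads thinned to the depth of the shallowest library, Lgals3bp and Ifi27 were still the only 2 members called in sham.

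**Figure D2:**
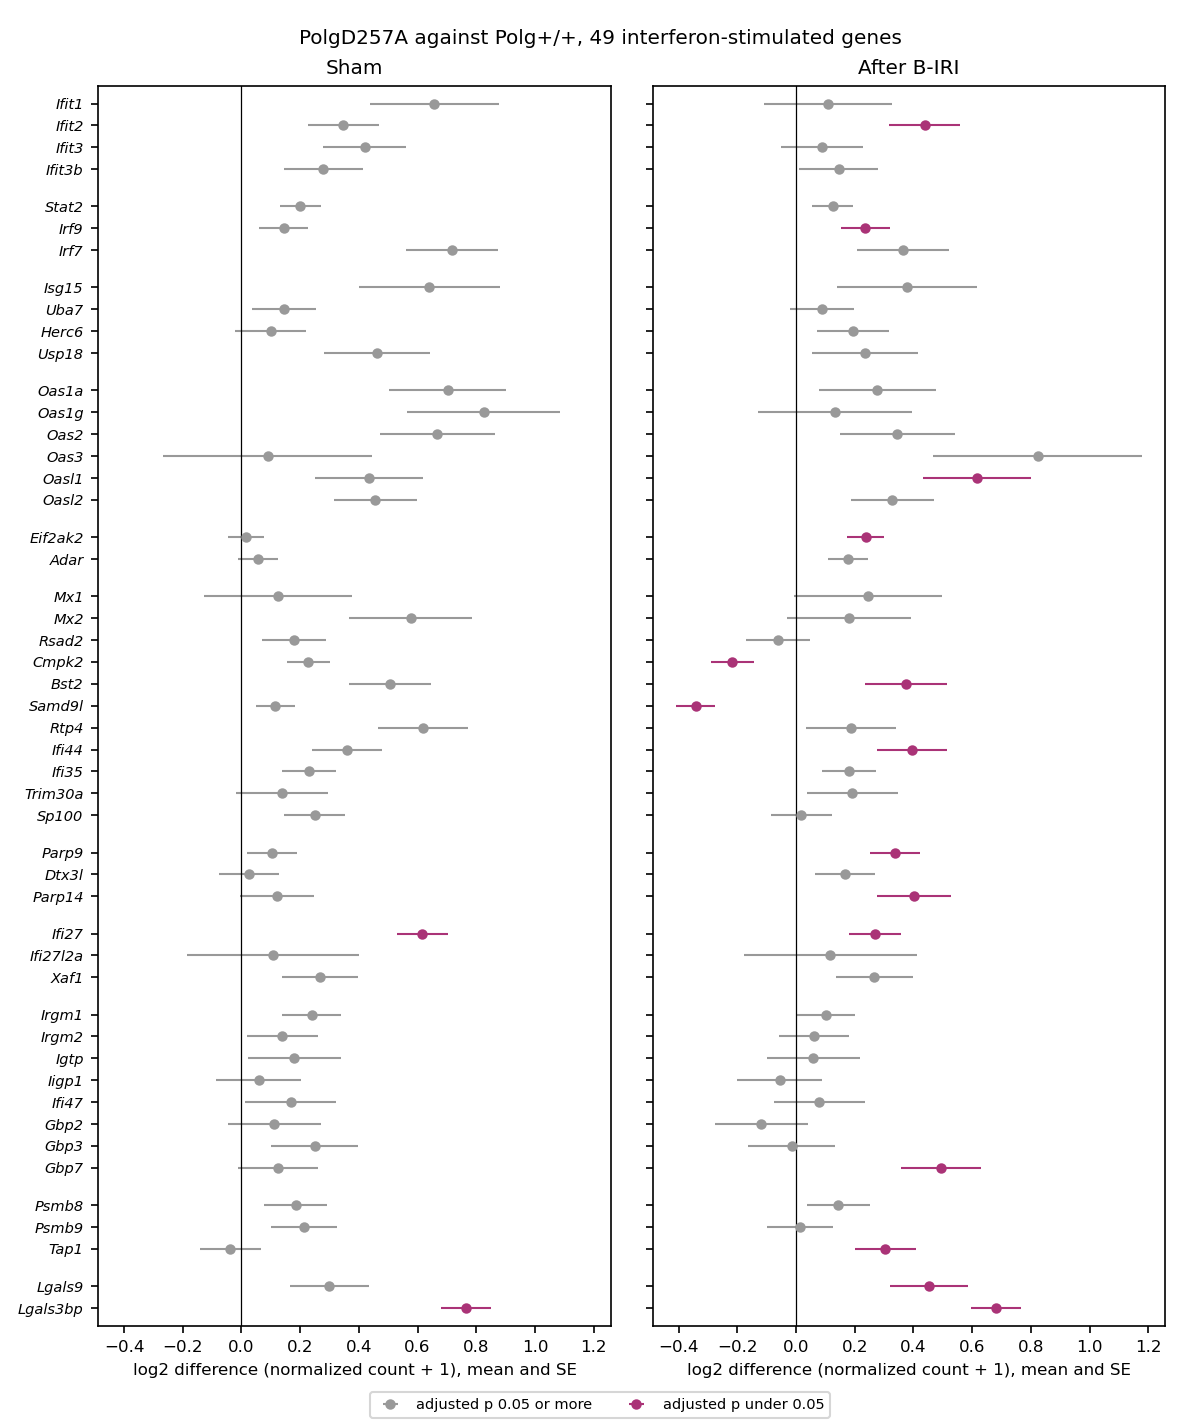
PolgD257A against Polg+/+ for the 49 members, grouped by role, in sham (left) and after B-IRI (right). Points are log2 differences of (normalized count + 1) with limma SE, coloured where adjusted p is under 0.05: 2 members in sham and 15 after B-IRI, of which Samd9l and Cmpk2 are lower.

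After B-IRI, PolgD257A kidneys were above Polg+/+ kidneys for 13 members and below for 2, at a time when 29.5% of all genes were called in this comparison. The 13 called higher (26.5%) stand beside 14.3% of all genes called higher, and the 2 called lower (4.08%) beside 15.2%. Differences were above 0 for 43 of 49 members with a median of 0.19, against 0.009 over all genes. Groups did not overlap for Lgals3bp and Lgals9 alone, both higher, 2 of 49 members (4.08%), where 4.65% of all genes showed this. No member was lower without overlap, where 5.94% of all genes were. Much of this shift came with 2 libraries, described further below, without which 3 members were called higher (6.12%, beside 11.5% of all genes) and 2 lower (4.08%, beside 13.0%).

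Lgals3bp again led, at 1099, 1186 and 1268 in B-IRI Polg+/+ and 1464, 1996 and 2155 in B-IRI PolgD257A. No B-IRI Polg+/+ library reached the lowest PolgD257A library (1.60-fold, log2 0.68 ± 0.09, adjusted p = 2.57e-06, limma). Lgals9, which encodes the interferon-induced lectin galectin-9, stood at 144, 238 and 257 and 259, 285 and 403. The gap between its groups was narrow, with the highest control just under the lowest PolgD257A library (log2 0.45 ± 0.13, adjusted p = 0.012, limma). Of the members, the authors' deposited table lists Lgals3bp (log2 0.67, SE 0.09) and Oasl1 (0.54, SE 0.20) among its 1401 genes. The contrast of the authors' deposited table is read from its name, all 1401 of its signs are those of the present comparison, and it holds no absolute log2 value under 0.5001.

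Among the signalling factors Irf9, the DNA-binding partner in the ISRE complex, rose, from 398, 434 and 478 to 428, 503 and 653 (log2 0.24 ± 0.08, adjusted p = 0.033, limma). Its groups overlapped at the low end of PolgD257A, and replicates 1 and 2 of B-IRI PolgD257A were the highest. Irf7 stood at 170.1, 249 and 313 and 212, 311 and 516, and did not pass (log2 0.36 ± 0.16, adjusted p = 0.083, limma). Oasl1, an OAS-like protein that limits IRF7 translation in mice, stood at 41.4, 65.5 and 71.4 and 58.8, 98.6 and 123. It rose, with overlapping groups (log2 0.62 ± 0.18, adjusted p = 0.012, limma), and was the only OAS gene of 6 to pass. Oas3 differed by more (0.82) at only 3.67 to 10.8 and 6.52 to 16.9 normalized counts and did not pass (adjusted p = 0.084, limma).

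Ifit2, the IFIT member that passed, stood at 192, 302 and 361 in B-IRI Polg+/+ and 329.96, 379 and 470.00 in B-IRI PolgD257A. All PolgD257A libraries but the lowest lay above every control (log2 0.44 ± 0.12, adjusted p = 0.0075, limma). None of the 4 ISG15-system genes passed, and Herc6, the ligase that attaches ISG15 in mice, stood at 86.3, 114 and 128 and 106, 123 and 159.9 (log2 0.19 ± 0.12, adjusted p = 0.25, limma). Those Herc6 ranges overlapped widely. Of the RNA sensing pair, Eif2ak2 stood at 427, 499.5 and 552 and 531, 567 and 651 and rose (log2 0.24 ± 0.06, adjusted p = 0.0051, limma), with overlap through 1 control, replicate 2.

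The PARP9 group comprises the ADP-ribosyltransferase-like PARP9, its ubiquitin ligase partner DTX3L and PARP14. Parp9 stood at 335, 423 and 449 and 411, 504 and 595 and rose (log2 0.34 ± 0.08, adjusted p = 0.0035, limma). Overlap was limited to the lowest PolgD257A library. Parp14 rose as well (0.40, adjusted p = 0.016), and Dtx3l did not pass (0.17). Parp9 and Dtx3l share 458 exonic bases on opposite strands, so their reads cannot be separated without strand-aware counting, and the sources used here do not say whether strand was used.

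Gbp7, a guanylate-binding GTPase of cell-autonomous defence, stood at 217, 255 and 358 and 325, 347 and 506, and was the only one of the 8 GTPases to pass. Its PolgD257A libraries overlapped with 1 high control, replicate 6 (log2 0.49 ± 0.14, adjusted p = 0.0073, limma). Tap1, which carries peptides to MHC class I molecules, stood at 227, 276 and 289 and 265, 317 and 399. Its ranges overlapped and it rose (log2 0.30 ± 0.10, adjusted p = 0.027, limma), while Psmb8 (0.14) and Psmb9 (0.01) did not pass. Ifi27 stood at 789.99, 965 and 1030.2 and 953, 1139.7 and 1319.6 and rose (log2 0.27 ± 0.09, adjusted p = 0.021, limma), with overlapping ranges and a smaller difference than in sham. Bst2 (0.37) and the antiviral gene Ifi44 (0.39) completed the 13 (adjusted p = 0.043 and 0.014, limma).

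Both members called lower are antiviral effectors. Samd9l (ENSMUSG00000047735.15, chr6:3372257-3399572), which restricts poxviruses and restrains cell growth, stood at 2663, 3052 and 3254 in B-IRI Polg+/+ and 2158, 2327 and 2849.6 in B-IRI PolgD257A. Replicate 2 was the one PolgD257A library inside the control range, and the gene fell (log2 -0.34 ± 0.07, adjusted p = 0.00034, limma). Cmpk2 (ENSMUSG00000020638.9, chr12:26469204-26479837), a mitochondrial kinase that supplies pyrimidine nucleotides and neighbours Rsad2 on chromosome 12, stood at 304, 317 and 363 and 246, 265 and 345. Its libraries showed the same picture with replicate 2 again the highest (log2 -0.22 ± 0.07, adjusted p = 0.028, limma). Rsad2, the antiviral enzyme viperin, differed by -0.06 and did not pass.

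**Figure D3:**
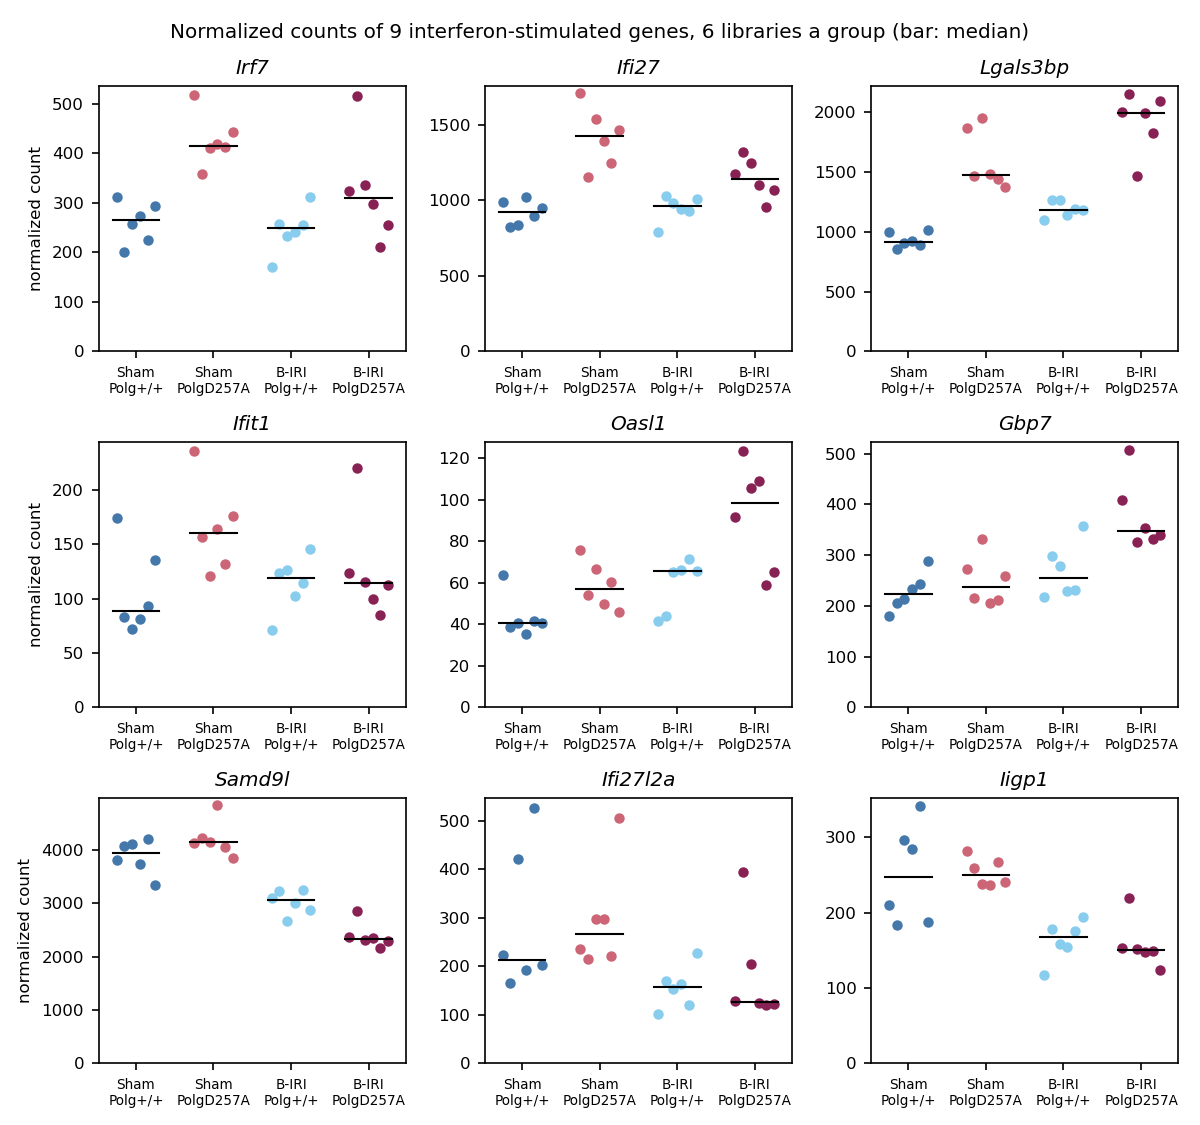
Normalized counts of 9 members in every library, by group, with bars at the median of 6 libraries. Lgals3bp and Ifi27 separate the sham genotypes, Samd9l is lower after injury in both genotypes and lies lowest in B-IRI PolgD257A, and 1 B-IRI PolgD257A library, replicate 2, is the highest of its group in all 9 panels.

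Libraries of a group differed more in these genes than in others, and in the injured groups 2 libraries stood apart for nearly the whole set. The median SD of log2 values was 0.21 over members and 0.15 over all genes in Sham Polg+/+, 0.17 and 0.16 in Sham PolgD257A, 0.25 and 0.16 in B-IRI Polg+/+, and 0.26 and 0.18 in B-IRI PolgD257A. B-IRI PolgD257A replicate 2 was the highest of its 6 libraries for 45 of 49 members, against 22.4% of all genes. B-IRI Polg+/+ replicate 1 was the lowest of its 6 for 37 members, against 22.5% of all genes. In sham, PolgD257A replicate 1 was the highest for 32 members (17.5% of all genes) and Polg+/+ replicate 2 the lowest for 25 (15.3%).

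Expressed as the mean log2 difference of the 49 members from the Sham Polg+/+ mean, the lowest, median and highest library stood at -0.19, 0.01 and 0.15 in Sham Polg+/+. They stood at 0.18, 0.27 and 0.51 in Sham PolgD257A, above every Sham Polg+/+ library. After injury they were -0.38, 0.02 and 0.19 in B-IRI Polg+/+ and -0.08, 0.12 and 0.66 in B-IRI PolgD257A, which overlapped. Both extremes came from the 2 libraries named. B-IRI Polg+/+ replicate 1 also had the lowest Havcr1 of its group (5441) and the lowest summed counts of macrophage and monocyte markers (2722, others 3365 to 4649). B-IRI PolgD257A replicate 2 had the highest such sum (5401, others 3687 to 5117), with Havcr1 at 35712. The part of injury and of immune cells in the members' levels was not tested.

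Leaving out B-IRI Polg+/+ replicate 1 lowered the number of members called higher after B-IRI from 13 to 7 (14.3%, beside 11.1% of all genes), and leaving out B-IRI PolgD257A replicate 2 lowered it to 8 (16.3%, beside 14.03%). Of the 15 calls, those of Lgals3bp, Eif2ak2, Parp9 and Samd9l held in all 39 other settings. Bst2 lost its call in 14 of the 39, Irf9 in 10, Tap1 in 6, Cmpk2 in 5, Ifi27 and Parp14 in 4 each, Ifi44 in 2, and Ifit2, Oasl1, Gbp7 and Lgals9 in 1 each. Without both, a setting chosen after the data were seen, 3 stayed called higher, Lgals3bp, Eif2ak2 and Parp9, and 2 lower, Samd9l and Cmpk2, and the median difference of the members was 0.03. Since these were the lowest control and the highest PolgD257A library, leaving them out shrinks the difference by construction. The same step left the sham median at 0.23 and added Irf7, Bst2 and Rtp4 to the members called higher there, 5 in all. Over all genes, 22 of 17430 were called higher there.

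**Figure D4:**
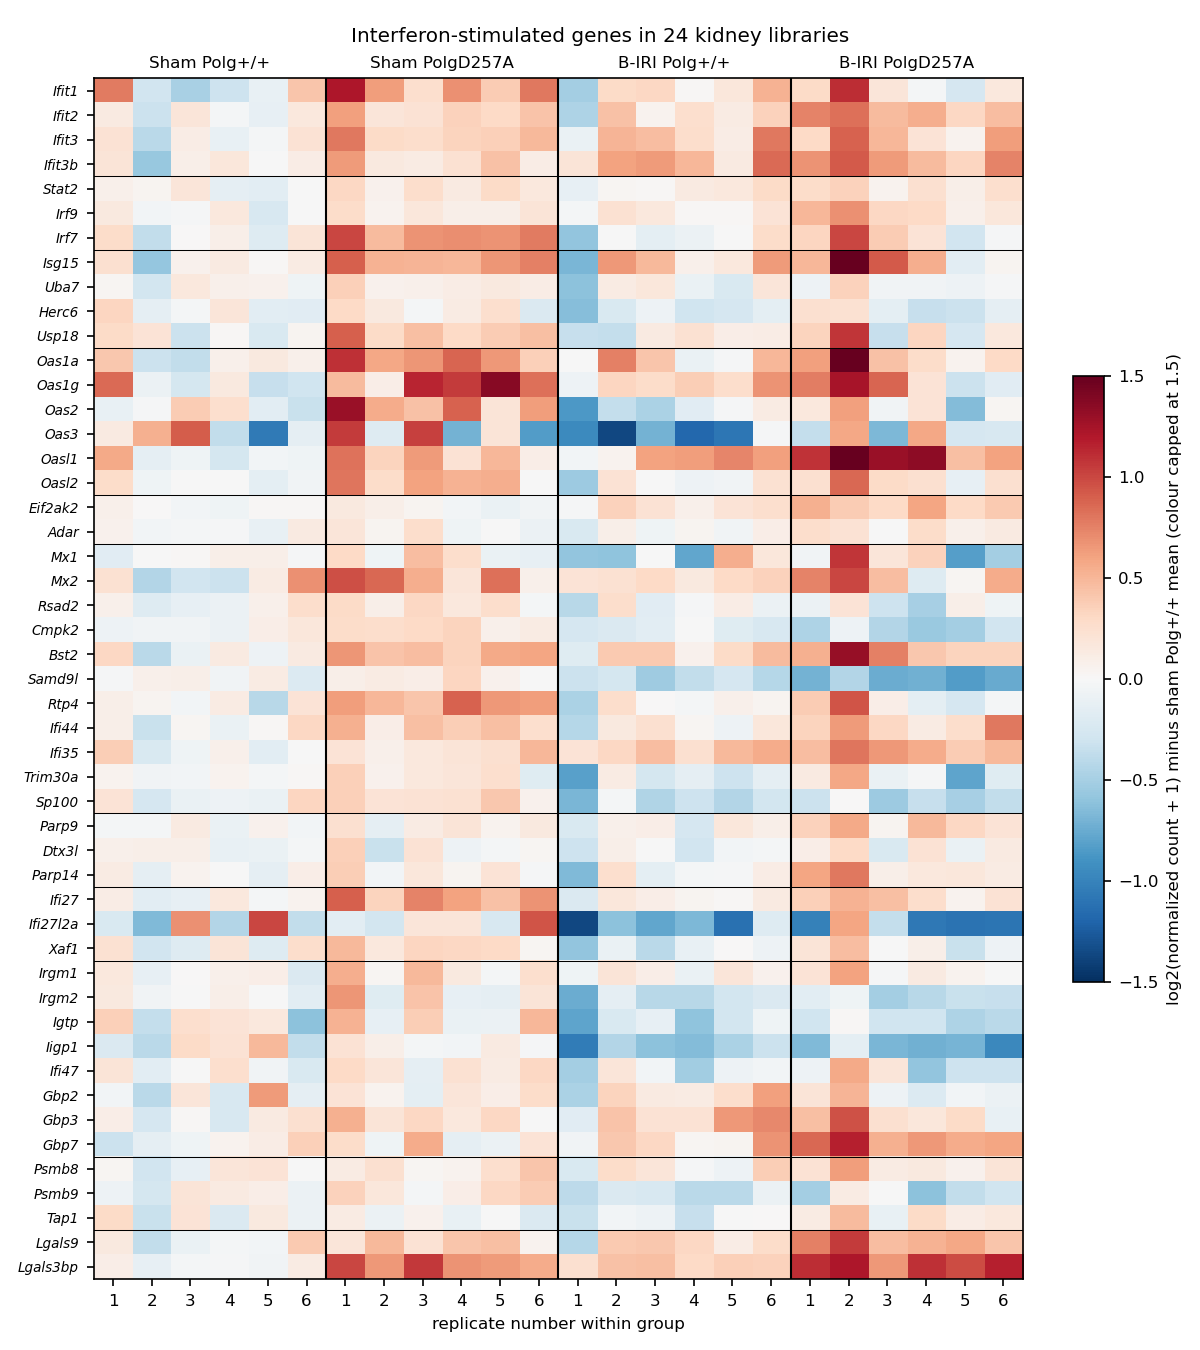
log2(normalized count + 1) of each member in each of the 24 libraries, minus its Sham Polg+/+ mean, with colour limited to 1.5 either way and lines between roles and groups. Sham PolgD257A columns are mostly red, B-IRI Polg+/+ replicate 1 is mostly blue, and B-IRI PolgD257A replicate 2 is mostly red where other libraries of its group are paler.

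Injury itself moved the set in no single direction. In Polg+/+ kidneys, 4 of 49 members were higher after B-IRI and 7 lower (22.4% called), where 41.2% of all genes were called, 21.4% higher and 19.8% lower, and the members' median was -0.02. Without overlap, 1 member was higher (Lgals3bp; 11.5% of all genes) and 1 lower (Samd9l; 8.7%). Ifit3b (0.48), Ifi35 (0.38), Lgals3bp (0.35) and Eif2ak2 (0.18) rose. Ifi27l2a (-0.79), Iigp1 (-0.59), Irgm2 (-0.37), the nuclear-body gene Sp100 (-0.36), Samd9l (-0.36), Psmb9 (-0.29) and Oas3 (-0.89) fell. Oas3 had 4.73 to 21.4 normalized counts in Sham Polg+/+ and 3.67 to 10.8 after B-IRI, and lost its call in 19 of 38 other settings. The balance depended on single libraries. Without B-IRI Polg+/+ replicate 1, 8 members were called higher and 4 lower (16.3% and 8.16%, beside 21.5% and 19.8% of all genes). Without replicate 5 of that group, 4 were called lower, beside 3279 of 17430 genes. There Ifi27l2a, Oas3 and Psmb9 lost their calls and Ifit3 was added as higher. Leaving out Sham Polg+/+ replicate 3 also left 4 lower. Without both libraries that stand apart, 9 were higher and 6 lower, beside 3831 and 3549 of 17430 genes, and the members' median was 0.06.

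In PolgD257A kidneys, 9 members were higher after B-IRI and 13 lower (44.9% called), where 60.4% of all genes were called, 30.2% higher and 30.3% lower, and the members' median was -0.13. The rises were led by Oasl1 (0.62), Gbp7 (0.60) and Eif2ak2 (0.40), and Eif2ak2 alone among members was higher without overlap (1 of 49, where 18.8% of all genes were). Samd9l, Cmpk2, Sp100 and Iigp1 were lower without overlap (4 of 49, 8.16%, where 17.5% of all genes were). Among the GTPases of the IRG family, which attack the vacuoles of intracellular parasites, Iigp1 (-0.71), Igtp (-0.47) and Irgm2 (-0.45) fell. Irf7 also fell (log2 -0.45 ± 0.16, adjusted p = 0.015, limma), from a median of 416 to 311, as did Ifi27 (-0.30), Rtp4 (-0.45) and Oas2 (-0.62). Their genotype differences in sham, given above for Irf7 and Ifi27, were 0.62 for Rtp4 and 0.67 for Oas2. Without B-IRI PolgD257A replicate 2, 5 members were called higher and 17 lower, beside 5161 and 5154 of 17430 genes.

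The steepest fall was that of Samd9l, from 3845, 4139 and 4834 in Sham PolgD257A to 2158, 2327 and 2849.6 after B-IRI, with no overlap (1.76-fold lower, log2 -0.82 ± 0.07, adjusted p = 6.35e-11, limma). In Polg+/+ it went from 3346, 3939 and 4209 to 2663, 3052 and 3254, also without overlap (log2 -0.36 ± 0.07, adjusted p = 0.0001, limma). Cmpk2 went from 384, 438 and 457 to 246, 265 and 345 in PolgD257A, again with separate groups (log2 -0.62 ± 0.07, adjusted p = 5.53e-08, limma), and from 342, 350.02 and 411 to 304, 317 and 363 in Polg+/+, which did not pass (log2 -0.17 ± 0.07, adjusted p = 0.061, limma).

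**Figure D5:**
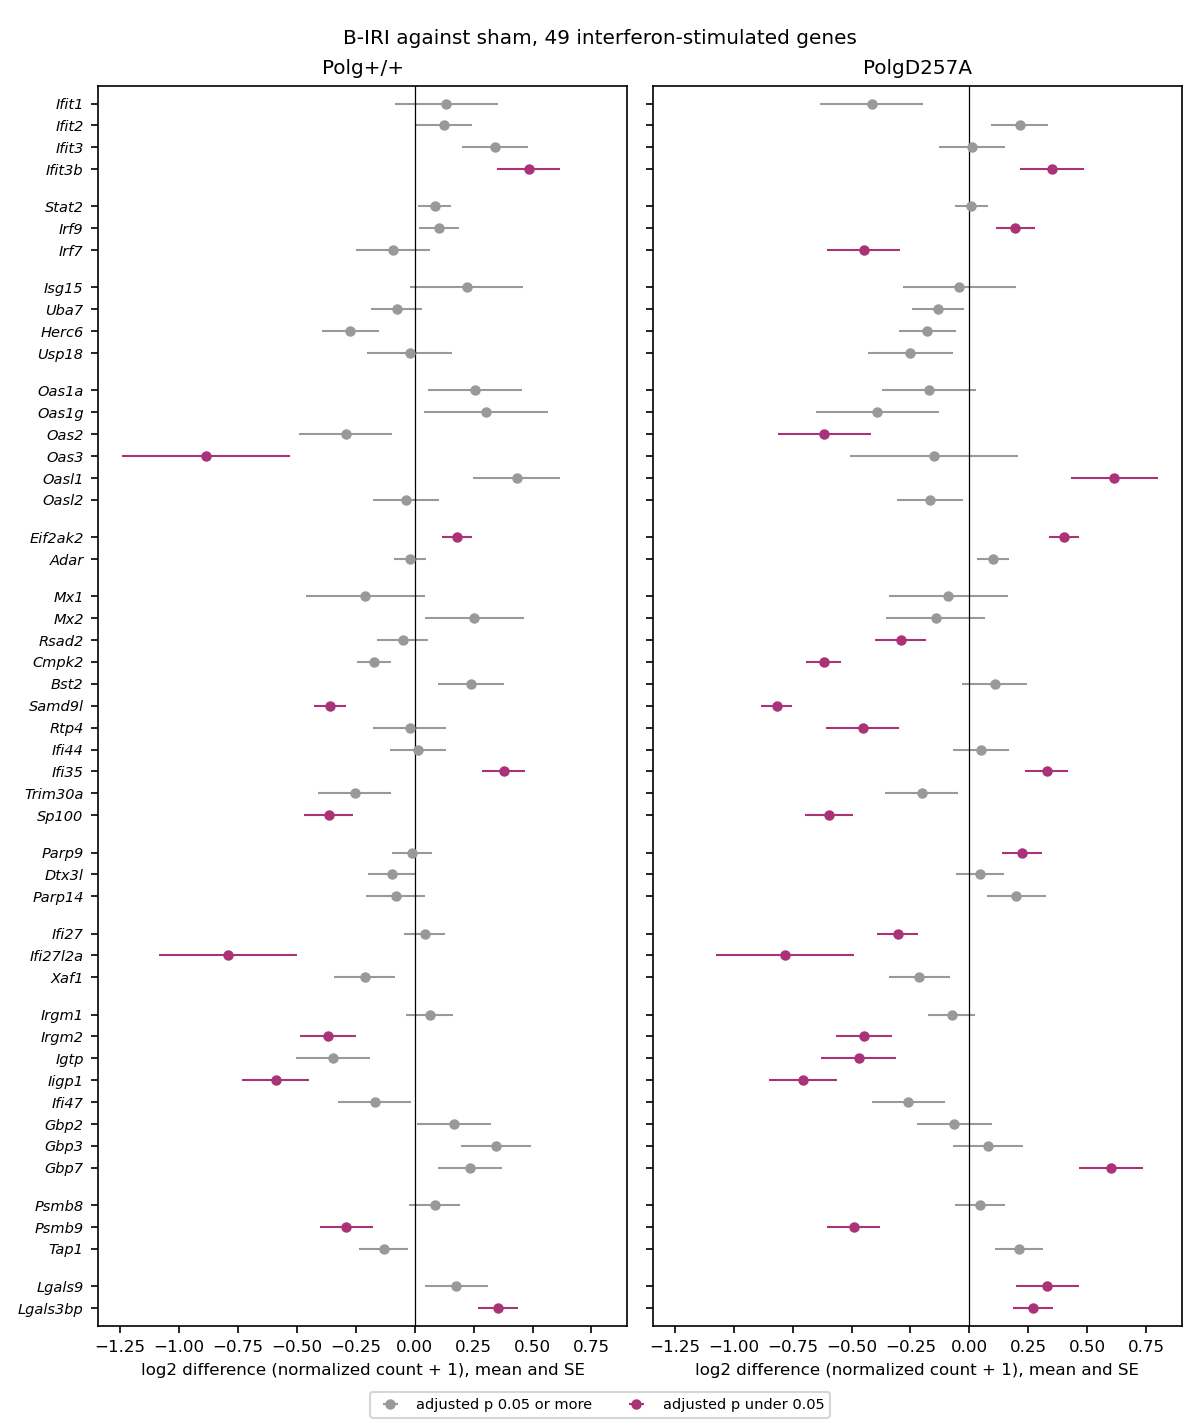
B-IRI against sham for the 49 members, grouped by role, in Polg+/+ (left) and PolgD257A (right). Points are log2 differences of (normalized count + 1) with limma SE, coloured where adjusted p is under 0.05: 4 higher and 7 lower in Polg+/+, 9 higher and 13 lower in PolgD257A.

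A surgery by genotype interaction, which asks whether the genotype difference itself changed with injury, passed for Samd9l (log2 -0.46 ± 0.09, adjusted p = 0.0019, limma) and Cmpk2 (log2 -0.44 ± 0.10, adjusted p = 0.0048, limma) only. Those 2 of 49 (4.08%), both lower, compare with 15.9% of all genes called, 6.87% higher and 9.08% lower. Both genes were a little higher in PolgD257A without injury (Samd9l 0.12, Cmpk2 0.23, neither called) and lower after it. No member had a positive interaction past the threshold with limma, edgeR or DESeq2, and 2 did at an unadjusted p under 0.05. Under that limit stood 5 of 49 members in either direction with limma, beside 28.95% of all genes. For Lgals3bp the interaction was -0.08, for Ifi27 -0.35 and for Irf7 -0.35 (adjusted p = 0.7, 0.055 and 0.31, limma). Ifi27 passed in 11 of 38 other settings. Without the 2 libraries that stand apart, 7 members had a negative interaction past the threshold, beside 1454 of 17430 genes. The added members were Ifi27, Irf7, Rtp4, Ifit1 and Gbp3. Beyond Samd9l and Cmpk2, calls made after B-IRI and not in sham are not shown to differ between the surgeries.

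Variability was largest in Ifi27l2a, Ifit1 and Irf7 among members averaging 100 or more normalized counts. Ifi27l2a, a small relative of Ifi27 next to it on chromosome 12 (chr12:103442167-103443680), stood at 165, 213 and 525 in Sham Polg+/+ and 216, 265 and 505 in Sham PolgD257A. After B-IRI it stood at 101, 158 and 228 in Polg+/+ and 121, 126 and 395 in PolgD257A. In sham 2 Polg+/+ libraries and 1 PolgD257A library, and after B-IRI 1 PolgD257A library, lay well above the rest of their groups, and neither genotype difference passed (0.11 and 0.12, adjusted p = 0.97 and 0.8, limma). Ifit1 stood at 70.8, 119 and 146 in B-IRI Polg+/+ and 85.0, 114 and 219.8 in B-IRI PolgD257A, with all PolgD257A libraries but replicate 2 inside the control range (log2 0.11 ± 0.22, adjusted p = 0.75, limma). Per kilobase of exon, mean levels ran from 1.51 normalized counts for Oas3 to 755 for Ifi27, with Samd9l at 622, Ifi27l2a at 497 and Lgals3bp at 495.

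Once group means were removed, the members moved together from library to library. Over 24 libraries, which share depth and scaling between genes, the median correlation between pairs of members was 0.47, beside -0.001 between genes at large, and 97.6% of the pairs of members were above 0. Irf7 (r = 0.93), Isg15 (0.90) and Bst2 (0.88) followed the mean of the other members most closely, and Samd9l (0.26) and Oas3 (0.30) least. Lgals3bp, the member with the clearest genotype difference, followed it at 0.50. Of 11400 genes averaging 100 or more normalized counts, the 5 outside the set with the highest correlation to the members' mean were Ifitm3 (0.87), Gbp4 (0.85), Mcm7 (0.84), Lig1 (0.83) and Irf1 (0.82), over the same 24 libraries. All these correlations include both B-IRI libraries that stand apart, and their part in them was not tested.

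Ligand genes of the pathway other than Ifng were nearly undetected. Of 20 interferon genes, 14 had no read in any library, Ifnb1 among them, and Ifng alone passed the filter. Ifng did not differ by genotype in sham (log2 1.03 ± 1.55, adjusted p = 0.93, limma) or after B-IRI (log2 0.59 ± 1.55, adjusted p = 0.81, limma). Its libraries fell in 2 sets present in every group, 12 at 99.96 to 252 normalized counts and 12 at 0 to 8.44, so no correlation with it is given. The labels hold nothing that matches these sets, and whether they reflect handling of the samples was not tested. Within the low set the members' median genotype difference was 0.26 in sham (2 against 3 libraries) and 0.28 after B-IRI (3 against 4), and within the high set 0.27 in sham (4 against 3) and 0.09 after B-IRI (3 against 2). The set was also taken as a term in the model, chosen after the data were seen. Then 3 members were called higher in sham, beside 16 of 17430 genes. After B-IRI 15 members were called higher and 2 lower, beside 2446 and 2615 of 17430 genes.

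Of 9 receptor and kinase genes of the pathway, 5 were higher in PolgD257A than in Polg+/+ kidneys after B-IRI and 0 lower. Over all genes, 14.3% were called higher and 15.2% lower. In sham 0 passed with limma, edgeR or DESeq2, nor at an unadjusted p under 0.05. Without the 2 libraries that stand apart, 4 were called higher after B-IRI. Ifngr2, a chain of the interferon gamma receptor, stood at 496, 616 and 725 in B-IRI Polg+/+ and 829, 916 and 1064 in B-IRI PolgD257A, without overlap (log2 0.59 ± 0.08, adjusted p = 3.09e-06, limma). Ifngr1 (0.36), Jak1 (0.26), Ifnar2 (0.26) and Ifnar1 (0.16) rose by less, and the interaction passed for Ifngr2 (0.66) and Ifngr1 (0.38).

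Other transcription factors and inhibitors of the pathway showed 0 of 14 called in sham by limma, edgeR or DESeq2. After B-IRI, 4 were called higher and 1 lower. Beside these stand 14.3% of all genes called higher and 15.2% lower after B-IRI, and 0.126% called in sham, with limma. Socs3, a feedback inhibitor of JAK signalling, stood at 163, 282 and 537 and 546, 739 and 910.5 and rose without overlap (2.49-fold, log2 1.31 ± 0.27, adjusted p = 0.00058, limma). Stat3 (0.61), the phosphatase Ptpn2 (0.31) and Irf1 (0.48) also rose, and Irf5 fell (-0.24).

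Marker lists of other cells give the setting of these values. Between sham genotypes 0 genes of the macrophage, neutrophil, T and NK cell, B cell, dendritic, endothelial and fibroblast lists were called by limma, edgeR or DESeq2. At an unadjusted limma p under 0.05, 2 macrophage and 2 endothelial markers were higher there and 1 T and NK cell marker lower. After B-IRI, PolgD257A kidneys had 4 of 13 macrophage and monocyte markers called higher and 1 lower, with sums of 2722 to 4649 in Polg+/+ and 3687 to 5401 in PolgD257A. The 3 neutrophil markers tested were all higher, with sums over all 8 listed of 38.9 to 128 and 83.7 to 505, as were 5 of 10 endothelial, 5 of 7 fibroblast and 9 of 10 tubular injury markers. The tubular injury sums were 69606 to 225770 in Polg+/+ and 224982 to 432266 in PolgD257A. Over all genes in this comparison, 14.3% were called higher and 15.2% lower. Of 13 T and NK cell markers 11 were tested, with 0 higher and 1 lower, and 0 of 9 tested dendritic cell markers were called. Of 6 B and plasma cell markers tested, 0 were higher and 2 lower. Of 12 proximal tubule markers, 0 were higher and 10 lower. No listed marker of these cell types was at 0 in every library. Without the 2 libraries that stand apart, called higher were 2 macrophage, 1 neutrophil, 1 endothelial, 2 fibroblast and 9 tubular injury markers. Over all genes, 2006 of 17430 were called higher in that setting. The part of these cell types in the members' differences was not tested.

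Some members share sequence with each other, and their separate values are uncertain. Ifit3 shares 51.2% of its 50-base transcript windows with other genes and Ifit3b 45.0%, nearly all with each other, and for Oas1a and Oas1g the shares were 57.6% and 54.7%. Exons of Tap1 and Psmb9 overlap by 212 bases on opposite strands, those of Irgm2 and Igtp by 162 bases on the same strand, and Irf7 overlaps Phrf1 by 45 bases. Irf7 and Trim30a lie on chromosome 7 with Polg, 61.8 and 25.0 megabases away, and a linked stretch of chromosome in the PolgD257A animals cannot be told apart from the mutation there.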

How the data were processed

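RNA from 24 kidney samples was made into libraries from 2 µg each with the NEBNext Ultra II kit, per the labels' protocols. FastQC, STAR, SAMtools, featureCounts and DESeq2 are named without versions in the submitters' processing notes, with GRCm38.p6. Normalized counts, the signal values used here, were deposited by the authors as gene counts over 1 size factor per library. Undoing that division (factors 0.740 to 1.31) returned whole reads, within 0.001, in 100% of values. A second table deposited by the authors holds log2 fold changes with standard errors and an s-value, read like a p-value, for genes they selected. Column names Ctrl, Mut and SurgBIR were read as Polg+/+, PolgD257A and B-IRI, which no source used here states.

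The members and lists were chosen with earlier results of these data known. IDs were matched to GENCODE M21 without version (52083 of 55416), and coordinates are those of M21, although only 35 versions were the same. limma 3.58.1 (trend, R 4.3.3) was fitted to log2(normalized count + 1) over all 24 libraries with 4 group means, for 17430 genes. In each comparison the text names every called member where these number 12 or fewer, and otherwise the member of smallest p in each role and any called against the majority. Further members, such as Cmpk2's neighbour Rsad2, are named for their role. Count models on recovered reads were edgeR 4.0.16 (quasi-likelihood) and DESeq2 1.42.0. Exact permutation tests used SciPy 1.17.1. The fit was tested on simulated data. Other settings changed the pseudocount, filter, scaling, weights, variance model, depth, block and libraries kept. Replicate numbers did not pair the libraries: correlations of same-numbered deviations ran from -0.33 to 0.17. p-values measure the spread between animals only as far as the labels' biological replicates are separate animals.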

Additional observations from a re-analysis of the deposited data

Results flagged for a closer look

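Of 196 sets of 6 values (49 members in 4 groups), 25 had 1 library set apart from the other 5 by more than Dixon's 95% limit for the gap relative to the range, and chance sets apart about 1 in 20. B-IRI PolgD257A replicate 2 held 13 of them, all as the highest value: Ifit1 219.8 normalized counts, Uba7 317.8, Usp18 135, Oas1a 137, Oasl2 314, Bst2 766, Samd9l 2849.6, Sp100 374, Ifi27l2a 395, Irgm1 1279, Igtp 297, Iigp1 219.8 and Psmb8 324. In these genes the other 5 libraries reached at most 123 for Ifit1, 204 for Ifi27l2a and 523 for Bst2. The remaining B-IRI value was Oas3 in Polg+/+ replicate 6, at 10.8 against 3.67 to 6.30.

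Among sham libraries, PolgD257A replicate 1 was set apart for Ifit3 (694), Uba7 (320.0) and Usp18 (120.0), replicate 6 for Ifi35 (377) and Ifi27l2a (505), and replicate 4 for Samd9l (4834). Polg+/+ replicate 1 was high for Oas1g (25.7), Oasl1 (63.5) and Oasl2 (208), and Polg+/+ replicate 2 low for Ifit3b (93.5) and Isg15 (45.6).

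The genotype difference changed with surgery for Cmpk2 (interaction -0.44 on the log2 scale, limma) and Samd9l (-0.46), both above 0 in sham and below 0 after B-IRI.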

How the results depend on the processing

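No called difference of a single member changed sign in a setting run here. The balance of calls for injury in Polg+/+ turned from more lower to more higher without B-IRI Polg+/+ replicate 1. It also did so without replicate 5 of that group. In sham, members called higher went from 2 to 4 with library weights, 5 with only the libraries compared, 4 with DESeq2 and 5 without the 2 B-IRI libraries that stand apart. After B-IRI, that last setting left 3 called higher (6.12%, beside 11.5% of all genes), and fitting only the libraries compared left 1 lower (2.04%, beside 13.5%). For injury in Polg+/+, library weights gave 8 higher (beside 4091 of 17430 genes) and leaving out both libraries 9 (3831 of 17430). No filter gave 4 lower (3213 of 35043 genes). For injury in PolgD257A, leaving out both gave 20 lower (5172 of 17430 genes). For the interaction, library weights gave 4 lower (1862 of 17430 genes) and leaving out both 7 (1454 of 17430). The cause of these moves was not tested. Leaving out each library in turn gave 2 to 4 members higher and 0 lower in sham. After B-IRI it gave 7 to 17 higher and 1 to 2 lower. For injury it gave 3 to 8 higher and 4 to 8 lower in Polg+/+. In PolgD257A, injury gave 5 to 9 higher and 11 to 17 lower. The interaction gave 0 to 1 higher and 2 to 4 lower. Of 17430 genes, the same step called 11 to 19 higher and 4 to 11 lower in sham. After B-IRI it called 1934 to 2532 and 2191 to 2722. For injury it called 3338 to 3793 and 2997 to 3526 in Polg+/+, and 5048 to 5290 and 5065 to 5298 in PolgD257A. For the interaction it called 857 to 1320 and 1245 to 1746.

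With the replicate block, 2 members were called higher in sham, and 12 higher and 2 lower after B-IRI. The block gave 5 higher and 5 lower for injury in Polg+/+, 8 and 13 in PolgD257A, and 0 and 2 for the interaction. Over all 17430 genes it called 16 higher in sham, and 2304 higher and 2482 lower after B-IRI. For injury it called 3555 higher and 3280 lower in Polg+/+, and 5153 and 5175 in PolgD257A. For the interaction it called 974 and 1352. At most 1 of 6 libraries correlated best with its own number.

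Over all genes in sham, 15 were higher and 7 lower with limma, beside 45 and 14 with DESeq2, 39 and 16 with library weights, and 25 and 12 with only the libraries compared. Lower calls numbered 4 with the block and 4 with a filter of 50 counts. Members near 10 counts, such as Oas3 and Oas1g, are limited by depth.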

Other observations

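Besides Ifng, 6 genes followed the same division of the libraries. Gzmb, which encodes the killer-cell protease granzyme B, stood at 180.2 to 409 normalized counts in the 12 libraries with high Ifng and at 1.73 to 71.5 in the other 12. The chemokine genes Xcl1 (55.8 to 117 against 0.917 to 8.44), Ccl1 (23.96 to 107 against 0 to 3.38) and Ccl3 (40.8 to 82.5 against 2.59 to 22.1) did not overlap between the sets either. The activation markers Crtam (11.7 to 41.9 against 1.69 to 10.8) and Tnfrsf9 (26.2 to 63.6 against 3.29 to 18.3) were likewise apart. The T cell genes Cd3e (2.71 to 13.0 against 1.09 to 14.6), Trac (9.27 to 31.9 against 6.52 to 41.7) and Cd8a (29.7 to 65.1 against 31.2 to 71.7) overlapped fully. The sets were defined on Ifng and the companions found afterwards, so these values are a description without a test. The library of highest mean member level was in the low set in every group. These were Sham Polg+/+ replicate 1, Sham PolgD257A replicate 1, B-IRI Polg+/+ replicate 6 and B-IRI PolgD257A replicate 2. They held 5.41, 4.32, 4.17 and 0.845 normalized counts of Ifng. The lowest libraries of Sham Polg+/+, Sham PolgD257A and B-IRI PolgD257A were in the high set, at 242, 252 and 146. B-IRI Polg+/+ replicate 1, the lowest of all 24, was in the low set, at 0. A link between the sets and the members' levels was not tested.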
